A study of Mus musculus with 16 samples.

Results

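This set of 10 genes, whose RNA stays largely in the nucleus or belongs to the cell's splicing control, was followed through 16 RNA-seq libraries of mouse muscle fibres. They were the long noncoding RNAs Malat1, Neat1, Meg3 and Mir99ahg, and the protein-coding genes Rsrp1, Ccnl1, Ccnl2, Clk1, Clk4 and Taf1d. All 10 were found by symbol among the 23222 gene symbols of the deposited tables. They were picked with the differences between runners and controls already known, so those differences are given as a description and without a test.

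The fibres were those of a fast hindlimb muscle, the extensor digitorum longus, in male C57BL/6 mice, and mononucleated cells that cling to fibres had been stripped off. Old runners were 22 months old and had run at will on wheels for 5 weeks. Old controls were 22 months old, young runners were 4 months old with the same 5 weeks of wheels, and young controls were 4 months old. Each group had 4 libraries. Nothing in the labels says that each library is a separate animal, or how many fibres went into one, so p-values measure the spread between libraries, which may be technical.

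Malat1 is an abundant RNA of nuclear speckles, the bodies where splicing factors are stored. Neat1 is the scaffold around which paraspeckles form. Many transcripts of the CLK kinases, the L cyclins and SR-type genes keep some introns after the rest have been spliced out. Such transcripts wait in the nucleus, and their further splicing is known to depend on the CLK kinases, which phosphorylate SR proteins, the splicing factors rich in arginine and serine. Heat, osmotic shock and other stresses are known to change how many of these introns are removed.

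The intron-keeping forms were visible in the annotation of the 6 coding genes. Retained-intron transcripts of GENCODE M21 (mm10) covered, whole, 3 of 12 introns of Clk1, 4 of 12 of Clk4, 4 of 10 of Ccnl1, 1 of 10 of Ccnl2, 3 of 6 of Taf1d and 1 of 4 of Rsrp1, counted in one coding transcript of each gene. Exon bases found in no other kind of transcript made up 63.8% of the exon bases of Clk1, 59.8% of Clk4, 52.3% of Ccnl1, 51.6% of Taf1d and 51.3% of Ccnl2, but 0.4% of Rsrp1. The deposited values count reads per gene, and the annotation used for counting is not given in the sources used here. Spliced RNA and intron-keeping RNA of one gene therefore cannot be told apart in the levels below. The 5′ splice sites at the start of 8 of these introns are shown because they are what the splicing machinery must read for the intron to leave. Each line gives the last 10 exon bases and the first 16 intron bases in mm10, with the first pair of intron bases in capitals.
Clk1 intron 3 (chr1:58421067-58421092, minus strand): ttcacacgggGTatgagtgcctttta
Clk4 intron 3 (chr11:51272013-51272038, plus strand): gtcgcattcgGTatgagtggtttgtt
Clk1 intron 4 (chr1:58420105-58420130, minus strand): agtgcaagatGTatagaatatttttc
Clk4 intron 4 (chr11:51273159-51273184, plus strand): agagcaagatGTatagaatatttttc
Ccnl1 intron 5 (chr3:65950464-65950489, minus strand): aaactgcctgGTaagttcctctttta
Ccnl2 intron 5 (chr4:155817978-155818003, plus strand): agactgcatgGTgagttgattttcct
Rsrp1 intron 3 (chr4:134925423-134925448, plus strand): aaaggtggagGTaagtgccttcagga
Taf1d intron 5 (chr9:15310400-15310425, plus strand): caagttggttGTaagtggctgatttt
The kinase paralogs were nearly identical at 1 of these sites. At intron 4, 25 of the 26 bases shown were the same in Clk1 and Clk4, and so were 16 of the 16 intron bases. At intron 3 they shared 17 of 26 bases, 12 of them within the 16 intron bases.

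Promoter sequences of RefSeq (GRCm38.p6, 250 bases before to 50 after the start) were at hand for 8 of the 10 genes. The cyclic AMP response element TGACGTCA, the binding motif of the CREB and ATF factors, was searched on both strands and stood in the windows of Ccnl1 (18 bases before the start), Clk4 (65 before) and 1 of 2 windows of Meg3 (57 before). It stood in 1.8% of all 32851 promoters of that length. The AP-1 motif TGANTCA, in 7.8% of all promoters, and the E-box CACGTG, in 7.2%, were in none of the 8 genes' windows. The promoters of Ccnl1 and Clk4 are printed as the pair of coding genes with the element, which is in capitals.
Ccnl1 promoter (chr3:65958200-65958499, minus strand): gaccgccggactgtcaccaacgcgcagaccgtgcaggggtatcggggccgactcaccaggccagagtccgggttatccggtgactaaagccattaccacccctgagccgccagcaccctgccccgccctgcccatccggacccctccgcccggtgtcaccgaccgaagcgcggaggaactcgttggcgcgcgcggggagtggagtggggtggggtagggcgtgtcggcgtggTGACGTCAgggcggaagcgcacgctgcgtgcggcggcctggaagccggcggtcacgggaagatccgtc
Clk4 promoter (chr11:51262864-51263163, plus strand): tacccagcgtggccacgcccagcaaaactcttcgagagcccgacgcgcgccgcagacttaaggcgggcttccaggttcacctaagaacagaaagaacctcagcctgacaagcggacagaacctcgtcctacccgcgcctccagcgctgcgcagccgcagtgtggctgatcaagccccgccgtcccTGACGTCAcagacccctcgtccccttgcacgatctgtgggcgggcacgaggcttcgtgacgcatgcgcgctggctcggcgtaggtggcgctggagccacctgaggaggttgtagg
These matches are letters in a window, and no binding was measured.

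Depth was 30.7 to 67.4 M reads assigned to genes per library (median 46.9 M), with 12694 to 17565 genes with a read. Mitochondrial transcripts took 0.639% to 2.07% of reads. First-strand synthesis in these libraries starts from poly(A) tails. Forms of an RNA without such a tail can be missed, so the levels and ratio of Malat1 and Neat1 may leave such forms out. The kit keeps no strand, so reads of a gene that overlaps one of the 10 cannot be separated from it. Taf1d overlaps 12 annotated genes, Cep295 among them, and Mir99ahg overlaps 18. Levels below are in CPM, a gene's reads scaled to a library total of 1000000 assigned reads, recovered from the deposited values. The 8 fibre markers, Acta1 and Ckm among them, summed to 116524 to 185153 CPM over the 16 libraries. Differences are given in deposited log2 units, in which low levels are compressed, as the first-named group minus the second ± its standard error, and whether groups overlap is judged on those values. Libraries are called by the column names of the tables, O1ex to O4ex for old runners, Oc1 to Oc4 for old controls, Y1ex to Y4ex for young runners and Yc4, Yc5, Yc7 and Yc8 for young controls.

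Per base of exon, Rsrp1 was the most abundant of the 10, with a mean of 119 RPKM (CPM per kilobase of exon) over the 16 libraries. Malat1 followed at 52.1, Ccnl1 at 39.3, Ccnl2 at 17.1, Neat1 at 14.1, Clk4 at 11.7 and Clk1 at 10.6. Taf1d had 2.66, Mir99ahg 0.362 and Meg3 0.0484 on this per-length scale. Exon length here is that of all annotated transcripts together, retained-intron forms included. The order therefore depends on the annotation, and the one used for counting is not given. The order varied by group: in old runners Ccnl1 (20.2) was above Malat1 (17.8), and Neat1 (4.77) below Clk4 (8.62) and Clk1 (6.60). Neat1 was below both kinases in old controls too, at 9.02 RPKM against 14.9 and 12.2. Young controls had the highest group mean for all 10 genes. The widest range was that of Neat1, 65.0-fold between its lowest and highest library, and the narrowest of the 9 genes with reads in every library was that of Clk4, 4.46-fold.

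**Figure D1:**
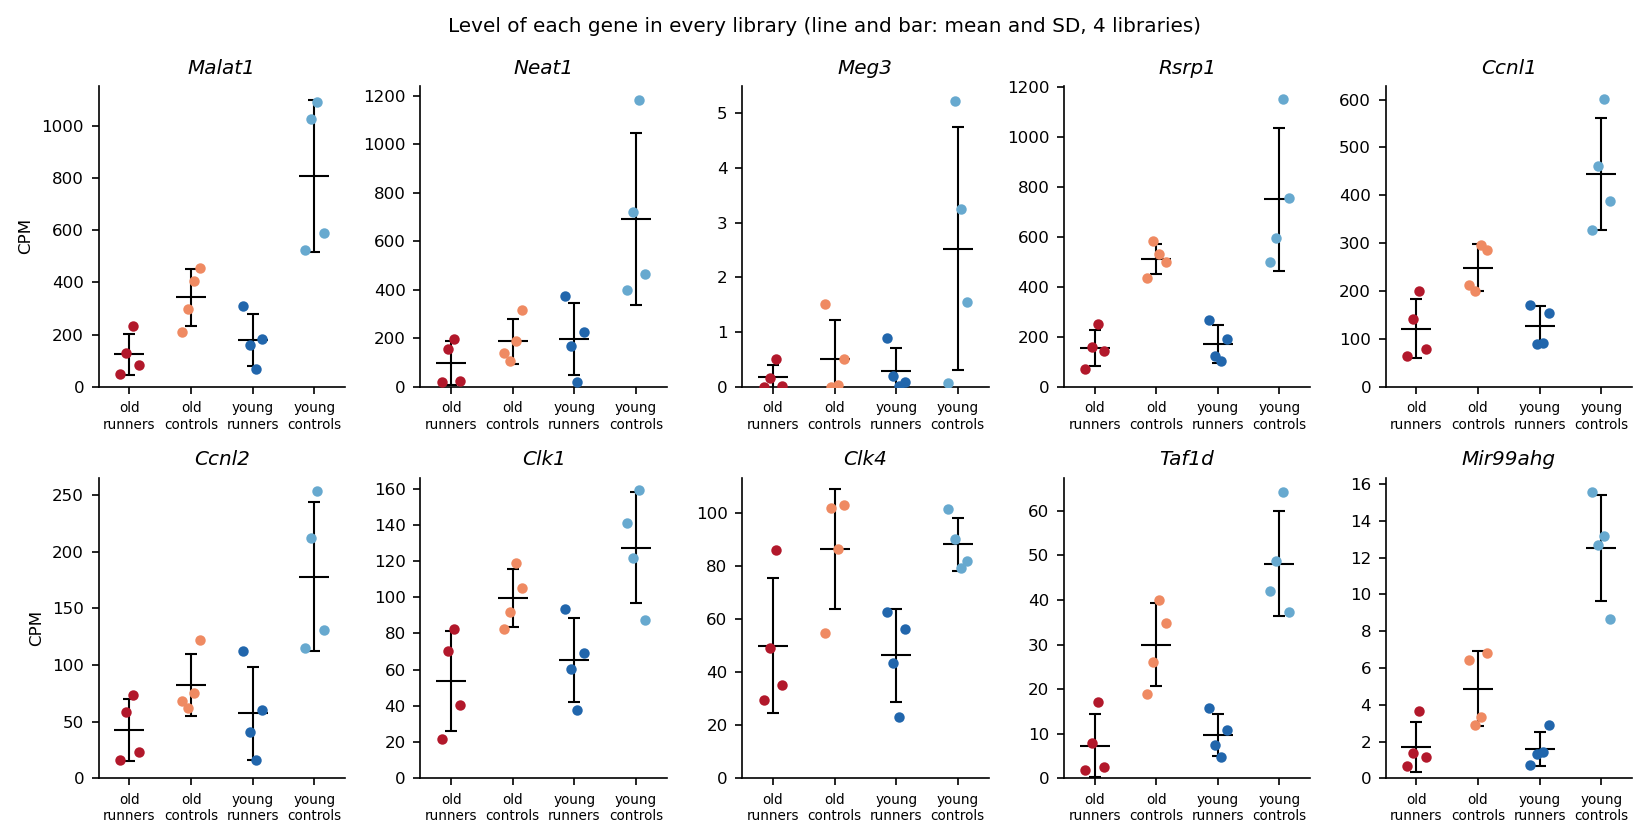
CPM (vertical axes, linear, each from 0) of the 10 genes in every library of old runners, old controls, young runners and young controls, with group mean and SD (n = 4). Young controls have the highest mean in all 10 panels, and old and young runners overlap in all 10.

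Among the nuclear noncoding RNAs, Malat1 (chr19:5795690-5802672, minus strand) had 50.3, 129, 234 and 83.1 CPM in old runners (O1ex to O4ex), against 210.1, 299, 406 and 455 in old controls. In young runners it had 311, 160.0, 69.4 and 182 CPM, against 524, 1025, 1092 and 589 in young controls. At 4 months every runner library was below every control library, and at 22 months O3ex reached into the range of the controls. The difference was -1.44 ± 0.35 on the log2 scale in old mice and -2.16 ± 0.38 in young mice. Old controls lay below young controls in every library, 343 ± 109.7 against 808 ± 292 CPM (SD, n = 4 each). That age difference of -1.18 ± 0.28 missed the threshold after adjustment over all genes (limma, adjusted p = 0.179). In bulk RNA, here and below, fewer cells of a type and less RNA per cell cannot be told apart.

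Neat1, close by on the same chromosome (chr19:5824708-5845478, minus strand), had 21.3, 154, 197 and 24.4 CPM in old runners and 141, 105, 188 and 316 in old controls. It had 375, 167, 18.2 and 224 in young runners and 398, 722, 1181 and 467 in young controls. The runner libraries fell into very low ones (O1ex, O4ex and Y3ex, at most 24.4) and others at 154 or more, and no control library was below 105. The running difference was -1.17 ± 0.58 in old mice, where the groups overlapped, and -2.16 ± 0.71 in young mice, where they did not. Between controls, Neat1 had the largest age difference of the 9 genes tested, 187 ± 91.9 in old against 692 ± 354 CPM in young controls, a difference of -1.80 ± 0.36 (limma, adjusted p = 0.100). Without the young control Yc4 the difference was -2.01 and passed (adjusted p = 0.0439), and among all alternatives run this was the 1 call of any of these genes between controls. The ratio of Neat1 to Malat1 reads, which needs no scaling between libraries, was 0.545 ± 0.166 in old controls, between 0.352 and 0.694, and 0.834 ± 0.168 in young controls, between 0.705 and 1.08 (SD, n = 4 each). In runners the ratio spread more, 0.688 ± 0.409 in old and 0.936 ± 0.457 in young mice.

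Meg3, the maternally expressed noncoding RNA of the Dlk1-Dio3 locus (chr12:109541001-109571726, plus strand), was near the limit of detection. Old runners had 0, 11, 27 and 1 reads (at most 0.504 CPM) and old controls 71, 0, 1 and 19 reads (at most 1.51). Young runners had 32, 10, 1 and 4 reads (at most 0.893 CPM), and young controls 3, 267, 199 and 82 (at most 5.22). The counts of 0 in O1ex and Oc2 allow up to 0.0977 and 0.0581 CPM, counting error only. All 4 groups overlapped, 3 of the 4 young controls had more reads than any library of the other groups, and Meg3 was too low to pass the main filter in any comparison. Of 6 further genes of its locus, 3 were among the symbols of the tables used here, and none of the 3 was high enough to be tested.

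Mir99ahg (chr16:77236317-77773427, plus strand) is a noncoding transcript whose span holds the genes of 3 microRNAs. Their mature forms were not measured here. They are shown with the seed, bases 2 to 8, in capitals (RefSeq), because the seed sets which messenger RNAs a microRNA pairs with, and no seed is shared among them.
mmu-miR-99a-5p: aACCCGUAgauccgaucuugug
mmu-let-7c-5p: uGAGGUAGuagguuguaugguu
mmu-miR-125b-5p: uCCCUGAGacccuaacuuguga
The host transcript had 0.652, 1.35, 3.68 and 1.16 CPM in old runners and 6.42, 2.91, 3.32 and 6.84 in old controls. Young runners had 0.697, 1.35, 1.44 and 2.91 CPM, against 15.6, 12.7, 13.2 and 8.64 in young controls. The mean of young controls was 7.84 times that of young runners, the largest such ratio of the 9 tested genes, and that of old controls was 2.85 times that of old runners, where O3ex lay above 2 control libraries. Because its levels were low, the log2 differences were compressed to -0.54 ± 0.20 in old and -1.69 ± 0.23 in young mice. Old controls lay below young controls in every library, 4.87 ± 2.05 against 12.5 ± 2.88 CPM (SD, n = 4 each), without passing the threshold (-0.80 ± 0.21, limma, adjusted p = 0.225).

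Taf1d (chr9:15306214-15316991, plus strand) encodes a subunit of the factor that starts RNA polymerase I at ribosomal genes, and the gene is a host of small nucleolar RNAs. It had 1.79, 7.85, 17.2 and 2.48 CPM in old runners and 18.9, 26.2, 40.0 and 34.7 in old controls. In young runners it had 15.7, 7.57, 4.76 and 10.8, against 42.1, 48.8, 64.3 and 37.4 in young controls. Runners and controls did not overlap at either age, and the means of controls were 4.08 times those of runners in old and 4.96 times in young mice. On the log2 scale the differences were -1.43 ± 0.31 and -1.91 ± 0.26. Between old and young controls the difference was -0.58 ± 0.21 with overlap at 1 old control library (limma, adjusted p = 0.341). Of 14 other genes of polymerase I initiation, among them the partners of the Taf1d protein, 9 had a positive and 5 a negative difference in old runners (median 0.02), and 8 and 6 in young runners (median 0.05). Over all genes tested, 45.2% had a negative difference in old runners and 48.5% in young runners. Polr1b, a core subunit of the polymerase, had the smallest p of that list at both ages and was higher in runners (0.70 ± 0.15 in old, adjusted p = 0.0970, and 0.77 ± 0.19 in young, adjusted p = 0.0799, both by limma), which missed the threshold.

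The kinases Clk1 and Clk4 had the smallest ratios of control to runner means, 1.86 and 1.73 in old and 1.95 and 1.90 in young mice. Clk1 (chr1:58410189-58424066, minus strand) had 21.6, 70.1, 82.7 and 40.2 CPM in old runners and 82.4, 92.0, 119 and 105 in old controls. It had 93.7, 60.3, 37.6 and 69.0 in young runners and 141, 122, 159 and 87.6 in young controls. In old mice O3ex was level with Oc1 in CPM and below every control on the deposited scale, and in young mice Y1ex stood above Yc8. Clk4 (chr11:51261730-51281766, plus strand) had 29.7, 49.1, 86.1 and 35.04 CPM in old runners and 54.6, 102, 86.5 and 103 in old controls, against which O3ex lay within the range. In young runners it had 62.7, 43.3, 23.1 and 56.1 and in young controls 101, 90.1, 79.2 and 82.0, with no overlap. Their differences were -0.82 ± 0.27 and -0.66 ± 0.25 in old and -0.88 ± 0.25 and -0.87 ± 0.24 in young mice, Clk1 before Clk4. The age differences were the smallest here: Clk4 averaged 86.5 ± 22.5 in old controls and 88.2 ± 9.97 CPM in young controls (-0.04 ± 0.20, limma, adjusted p = 0.958), and Clk1 99.6 ± 15.9 and 127 ± 30.6 (-0.29 ± 0.20, adjusted p = 0.605).

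The cyclins L, partners of the CDK11 kinases in splicing, had ratios of control to runner means of 2.05 (Ccnl1) and 1.92 (Ccnl2) in old and 3.49 and 3.11 in young mice. Ccnl1 (chr3:65946151-65958249, minus strand) had 64.7, 141, 201 and 79.4 CPM in old runners and 213, 199.6, 296 and 287 in old controls. Its levels were 172, 90.4, 92.0 and 155 in young runners and 328, 461, 601 and 388 in young controls. Every young runner was below every young control, and at 22 months O3ex was level with Oc2 in CPM and below every control on the deposited scale. Ccnl2 (chr4:155812489-155824543, plus strand) had 15.995, 58.9, 73.1 and 23.0 in old runners and 68.5, 62.4, 75.2 and 122 in old controls, and 112, 40.8, 15.98 and 60.1 in young runners and 115, 213, 254 and 131 in young controls. In Ccnl2 the libraries O1ex, O4ex and Y3ex were the low ones, as in Neat1, while O3ex and Y1ex came close to or within the range of the controls. The running differences of Ccnl1 were -0.98 ± 0.26 in old and -1.71 ± 0.23 in young mice, and those of Ccnl2 were -0.87 ± 0.33 and -1.69 ± 0.44. Old controls lay below young controls in every library on the deposited scale for both cyclins (Ccnl1 -0.78 ± 0.19, adjusted p = 0.201, and Ccnl2 -1.005 ± 0.26, adjusted p = 0.209, by limma), while in CPM Ccnl2 in Oc4 stood above Yc4.

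Rsrp1 (chr4:134923592-134927671, plus strand), which encodes a small protein rich in arginine and serine, had 70.6, 161, 249 and 142 CPM in old runners and 435, 582, 529 and 499.8 in old controls. In young runners it had 267, 125, 102 and 192, against 498, 596, 1149 and 755 in young controls. The runner libraries of both ages ended at 267 and the control libraries of both ages began at 435. The differences were -1.67 ± 0.26 in old mice, the largest of the 9 genes at that age on the deposited scale, and -2.05 ± 0.30 in young mice. By the ratio of means, 3.29 for Rsrp1 in old mice, Taf1d with 4.08 was the larger. The age difference of Rsrp1 among controls missed the threshold, 512 ± 61.1 in old and 749.6 ± 287 CPM in young controls (SD, n = 4 each), with overlapping libraries (-0.46 ± 0.23, limma, adjusted p = 0.480).

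Over the list, the median difference of the 9 genes that could be tested was -0.98 in old runners against old controls, beside 0.03 for all 9379 genes tested there. In young runners against young controls it was -1.71, beside 0.01 for all 10624 genes. Since these contrasts chose the genes, the medians describe the choice and nothing is read from them.

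**Figure D2:**
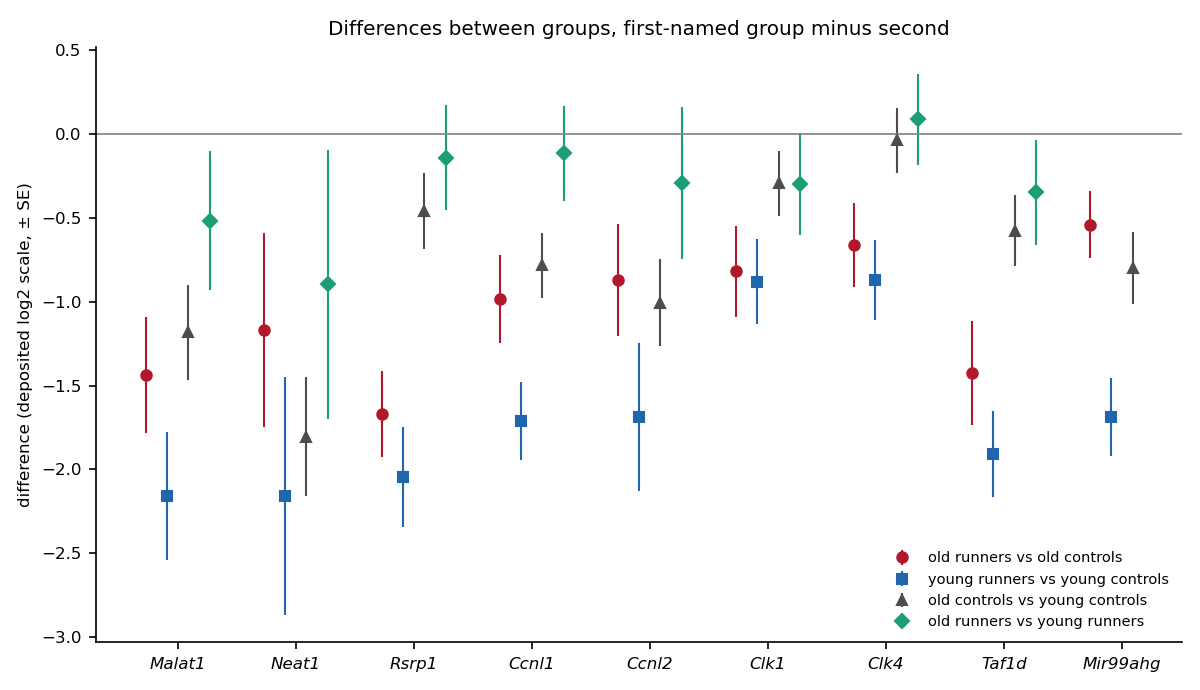
Differences in deposited log2 value with standard error (vertical axis) of the 9 genes that could be tested, for old runners minus old controls, young runners minus young controls, old controls minus young controls and old runners minus young runners. The running differences run from -0.54 to -2.16, and the differences between runners of both ages, for 8 genes, lie between -0.90 and 0.09.

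Within the runner groups most of the 9 genes shared an order of libraries. O1ex was the lowest of the 4 old runners in 9 of 9 genes and O3ex the highest in 9 of 9. Among young runners Y3ex was lowest in 7 and Y1ex highest in 8, and among young controls Yc7 was highest in 7 and Yc4 lowest in 5 and highest in 2. Old controls shared less of an order, with Oc1 lowest in 5 genes and Oc2 in 4. The 9 genes summed to 277 CPM in O1ex, 430.5 in O4ex, 772 in O2ex and 1144 in O3ex, against 1230.2 to 1929 in old controls. In young runners the sum was 364 in Y3ex and 1411 in Y1ex at the ends, against 2163 to 4593 in young controls. Depth was 30.7 M reads in O1ex, 46.7 M in O4ex, 67.4 M in O2ex and 53.6 M in O3ex. The summed fibre markers ran the opposite way among old runners, at 182461 CPM in O1ex, 168401 in O4ex, 164634 in O2ex and 146570 in O3ex. Among young runners they were highest in Y3ex (185153) and lowest in Y1ex (133954). Endothelial markers were highest in O3ex (98.3 CPM, against 20.9 to 52.6 in the other old runners) and in Y1ex (122, against 26.0 to 66.0 in the other young runners). Pericyte and smooth muscle markers were also highest there, at 74.4 CPM in O3ex and 66.96 in Y1ex. Among young controls the fibre markers instead rose with the sum of the 9 genes, from 141471 CPM in Yc4 to 160753 in Yc7. Endothelial markers were lowest in Yc7 there, at 6.02 CPM. In old controls the fibre markers were 166582 CPM in Oc1, which had the lowest sum of the 9 genes, and 116524 in Oc4, which had the highest. The part of depth and of these cell markers in the order was not tested. Across the 36 pairs of genes the Pearson correlation of log2 levels over the 16 libraries ran from 0.71 (Clk4 with Mir99ahg) to 0.97 (Neat1 with Ccnl2), and with the group means taken out from 0.24 to 0.97, with medians of 0.89 and 0.84. With the group means taken out, the 8 pairs with Mir99ahg had the lowest values, 0.24 to 0.46. The points share depth, library preparation and group, and the values describe these libraries.

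**Figure D3:**
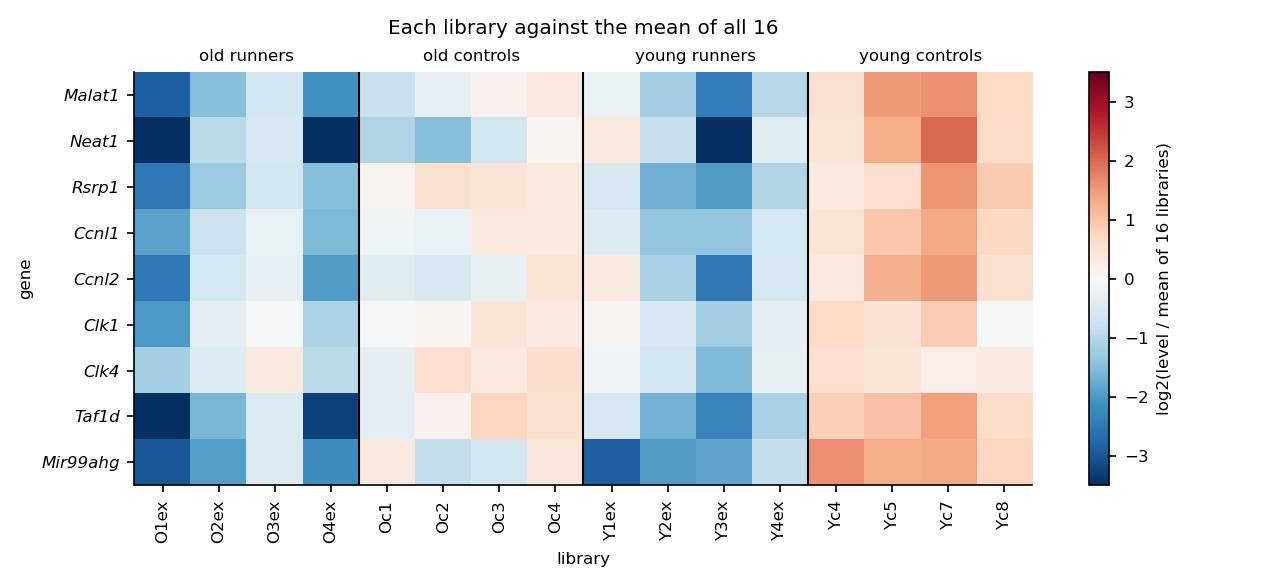
Level of each of 9 genes (rows) in each of the 16 libraries (columns, by group) as log2 of the level over the mean of the 16 libraries, red above and blue below. Values past the ends of the colour scale take the end colours. O1ex, O4ex and Y3ex are the darkest blue columns for most genes. The young controls are above the mean throughout, some of them pale, Clk4 among them, with Clk1 in Yc8 near white.

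Leaving out the lowest runner libraries brings the groups closer by construction. Without O1ex and O4ex together, a removal chosen after the values were seen, the median of the 9 genes in old runners against old controls was -0.37, against -0.98 with them. Rsrp1 then had a difference of -1.27, Taf1d -0.87, Malat1 -0.84, Ccnl1 -0.48, Mir99ahg -0.37, Clk1 -0.30, Clk4 -0.29, Ccnl2 -0.21 and Neat1 0.05. With any single library left out, the median lay between -1.21 and -0.75 in old mice and between -2.07 and -1.62 in young mice.

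Age was compared among controls and among runners, in 2 comparisons that the choice of the genes did not use, although they share libraries with those that it did use. In old controls against young controls all 9 tested genes were lower, where 50.7% of all genes were, with a median of -0.78, beside -0.01 for all genes. The call of limma reached 0 of 9, as did that of voom on the recovered reads, where 0.112% of all 9831 genes were called by limma. At an unadjusted p under 0.05 there were 6 of 9 (Neat1, Malat1, Ccnl1, Ccnl2, Mir99ahg and Taf1d), all lower in old controls, where 5.75% of all genes were. Groups did not overlap in 5 of them, all lower, where 2.84% of all genes were lower without overlap. The young controls that stand high here are the same libraries that stand high against young runners. Genes chosen with that contrast known are thus favoured to be lower in old controls here, so these counts are a description.

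Between old runners and young runners the median difference of the genes tested was -0.29, beside 0.005 for all genes. Of 8 genes tested, 7 were lower and 1 higher, where 48.7% of all genes were lower, from -0.90 ± 0.80 for Neat1 to 0.09 ± 0.27 for Clk4. The groups overlapped in all 8, where 3.38% of all genes did not overlap. No gene was called by limma or by voom (adjusted p = 0.9995 for each by limma), where 0.0213% of all 9387 genes were, and 0 of 8 had an unadjusted p under 0.05, where 4.91% of all genes did. A p that misses the threshold does not show that the groups were alike.

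A single model of both ages tested whether the running difference itself depended on age. It is built from the 2 contrasts that chose the genes, so its values too are a description. The old minus young effect, positive where the difference was smaller in old mice, ran from 0.06 ± 0.40 for Clk1 to 1.14 ± 0.31 for Mir99ahg, with 0.72 ± 0.56 for Malat1, 0.99 ± 1.02 for Neat1 and 0.73 ± 0.38 for Ccnl1. No gene was called by limma or voom, nor was any of all 9356 genes (0%). Mir99ahg, 1 of 9, had an unadjusted p under 0.05, where 6.25% of all genes did, and its adjusted p was 0.549 by limma. A p that misses the threshold does not show that the difference was alike at both ages.

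Genes that work with the 10 were looked at in 11 lists of 236 names, drawn up with earlier results of these data known. No gene of these 11 lists was called by limma in any of the 4 comparisons, with 203 tested in old runners against old controls, where 0.128% of all genes were called, and 209 in young runners against young controls, where 0.762% were. There were 205 tested in old against young controls and 202 in old against young runners. At an unadjusted p under 0.05, 24 were lower and 17 higher in old runners, and 32 were lower and 13 higher in young runners, where 17.4% of all genes had such a p at either age. Between controls 13 were lower and 11 higher in old mice, where 11.2% of all genes had such a p, and between runners 3 and 1, where 4.91% did. Lower at such a p were 7.04% of all genes in old runners and 8.51% in young runners. Between controls that share was 5.75%, and between runners it was 2.5%. Calls by voom on the recovered reads were 0 in both running comparisons. Of 34 SR proteins and other speckle proteins, 26 had a negative difference in old runners (median -0.21), where 45.2% of all genes did, and 27 in young runners (median -0.34), where 48.5% did. Whether the list differed from other genes was not tested. The smallest p in that list belonged to the SR protein gene Srsf7 in old runners (-0.78 ± 0.20, 47.8 ± 17.9 in old runners against 91.1 ± 12.4 CPM in old controls, adjusted p = 0.117 by limma). In young runners it belonged to Luc7l2, a gene of a U1-associated splicing protein (-1.22 ± 0.25, 15.2 ± 5.20 in young runners against 42.8 ± 13.8 CPM in young controls, adjusted p = 0.0573).

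Other long noncoding RNAs had a median of -0.31 over 13 tested genes in old runners and -0.54 over 18 in young runners. Snhg1, a host of small nucleolar RNAs, had the smallest p in old mice (-0.77 ± 0.18, adjusted p = 0.109 by limma) and Gas5, another such host, in young mice (-1.34 ± 0.27, 12.2 ± 5.57 in young runners against 37.7 ± 9.90 CPM in young controls, adjusted p = 0.0560). Between controls the smallest p was that of Kcnq1ot1, an imprinted nuclear RNA, with 5.70 ± 1.51 in old and 15.4 ± 3.83 CPM in young controls (-0.87 ± 0.19, adjusted p = 0.139).

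Medians of the splicing machinery itself were nearer to zero. Medians in old and young runners were -0.09 and -0.06 for 43 core spliceosome genes, -0.01 and 0.02 for 15 paraspeckle protein genes, -0.12 and -0.07 for 26 genes of nuclear export and the exosome, and 0.01 and 0.10 for 15 genes of nonsense-mediated decay. For the SR protein kinases and cyclin partners they were -0.08 and -0.15 over 12 genes, and for the hnRNP proteins -0.07 over 22 and 0.08 over 23 genes. Among the other kinases, Dyrk1a was higher in old runners (0.85 ± 0.18, 101 ± 19.9 against 57.6 ± 15.9 CPM in old controls, adjusted p = 0.0964) and Clk3, a paralog of Clk1 and Clk4, lower in young runners (-0.77 ± 0.21, 40.0 ± 9.20 against 76.7 ± 24.3 CPM in young controls, adjusted p = 0.108), and limma called neither. The splicing regulators of muscle had 9 of 9 positive differences in old runners (median 0.24) and 8 of 9 in young runners (median 0.21). Of all genes, 45.2% had a negative difference in old runners and 48.5% in young runners, and whether the list differed from them was not tested. Among these regulators Qk, whose protein binds intronic motifs in muscle transcripts, was at 0.83 ± 0.24 in old runners (adjusted p = 0.151 by limma).

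**Figure D4:**
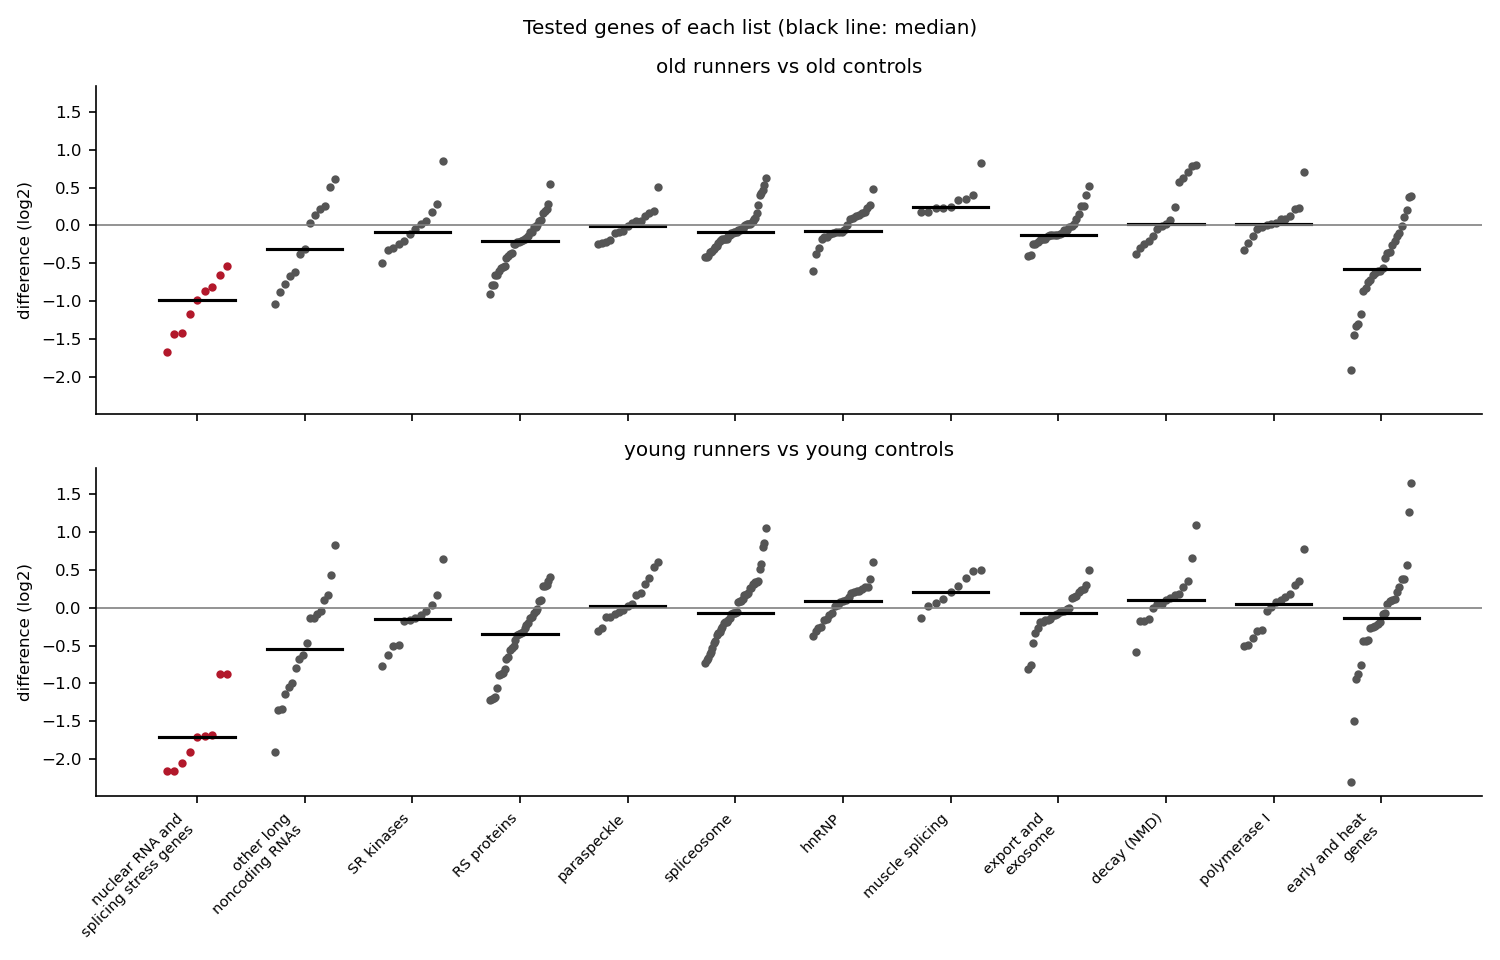
Differences in deposited log2 value (vertical axis) of every tested gene of 12 lists, old runners minus old controls above and young runners minus young controls below, with the median as a black line and the 9 members in red. The members were chosen on these differences; their medians are -0.98 and -1.71, and those of the spliceosome genes are -0.09 and -0.06.

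Genes with the most similar pattern over the 16 libraries were sought among 9108 genes for Malat1, Rsrp1 and Clk1. Nearest to Malat1 were Sec24a, a coat protein gene of secretory vesicles (r = 0.95), the phosphate transporter gene Slc20a1 (0.95), the myosin light chain gene Myl6, Sat1, which encodes the enzyme that acetylates spermine and spermidine, and Stx5a (each 0.94). Nearest to Rsrp1 was Ddit3, which encodes the stress-induced factor CHOP (r = 0.97, and 0.93 with the group means taken out), followed by Sat1 (0.96), Slc20a1, Ankrd23 (each 0.95) and Gadd45b (0.94). For Clk1 they were Sec24a (0.96), Map2k3os (0.95), Srsf5, itself an SR protein gene (0.95), Mir1938 and Gas5 (each 0.94). These are Pearson correlations of log2 levels over 16 libraries that share depth, preparation and group, with the search over all genes as a description.

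Other signals differed between the same groups, and their part in the results was not tested. The 10 markers of fibro-adipogenic progenitors, connective tissue cells of muscle, summed to 41.7 to 91.7 CPM in old runners against 5.72 to 47.2 in old controls, and to 80.4 to 263 in young runners against 1.33 to 15.3 in young controls. All 10 had reads in young mice, and in old mice 9 of 10 did, with Pdgfra at 0 in every old library. In young mice the 10 endothelial markers (26.0 to 122 in runners, 6.02 to 23.5 in controls) and the 8 pericyte and smooth muscle markers (15.3 to 66.96 in runners, 1.44 to 12.5 in controls) also did not overlap, and every one of them had reads in both groups. Immediate early and heat-inducible genes, 28 in all, summed to 10630 to 17893 CPM in old runners against 21539 to 26647 in old controls. They overlapped in young mice, at 15175 to 22414 in runners and 18298 to 23649 in controls. This list too was drawn up with earlier results of these data known, so its counts are a description. Of the 26 tested, 22 had a negative difference in old runners (median -0.58) and 15 in young runners (median -0.14). Of all genes, 45.2% had a negative difference in old runners and 48.5% in young runners. Limma called 4 of the 26 lower in old runners, where 0.0533% of all genes were called lower. They were Zfp36, whose protein speeds the decay of messenger RNAs (198 ± 18.6 in old runners against 605 ± 75.4 CPM in old controls, adjusted p = 0.00539), the immediate early gene Ier2 (540 ± 93.3 against 1312 ± 157, adjusted p = 0.0198), the stress-induced gene Gadd45b (153 ± 53.0 against 403 ± 41.8, adjusted p = 0.0458) and Fos, named here after the values were seen. In young runners it called 1 lower, the heat shock cochaperone gene Dnajb1 (123 ± 53.6 in young runners against 685 ± 357 CPM in young controls, adjusted p = 0.0357), where 0.48% of all genes were called lower. The count in old mice was 1, Zfp36, without O2ex, Oc2, Oc3 or Oc4, 3 without O1ex, O3ex or O4ex, and 5 without Oc1. It was also 5 with median centring, quantile normalisation or a stricter filter. It was 2 by voom, with no filter or with the exon length trend removed, and 0 without O1ex and O4ex. In young mice it was 2 without Yc4 and 0 without any other single library, by voom or with no filter, and it was 2 with median centring or the length trend removed and 3 with quantile normalisation.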

How the data were processed

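Per the labels, RNA of stripped myofibres was taken up on columns, and 10 ng was amplified with SMART-Seq v4 and made into libraries with the Nugen Ovation Ultralow kit. Per the submitters' processing notes, the authors used Trim Galore, STAR, featureCounts of Subread and DESeq2 on mm10; their versions and the annotation are not given in the sources used here. What the authors deposited are log2 values after the variance-stabilising step of DESeq2 on size-factor-scaled counts, in 4 tables of 1 pair of groups each with floors of 6.73 to 7.69. Inverting it gave whole reads within 0.02 for 100% of values, and 0 of 307028 values held by a pair of tables differed. Another 1839 values above 0 were of genes that the other table of the same library left out, so these had no second value to compare. Those reads gave CPM and, with exon lengths of GENCODE M21 (22254 of 23222 symbols matched), RPKM.

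Each pair was fitted in its own table with limma 3.58.1 (R 4.3.3, trend, 2-sided), for genes at least 1 above the floor in 4 libraries, with Benjamini-Hochberg adjustment over all genes tested and a threshold of 0.05. The model of both ages had a term for the table. Python 3.11.15 served for tables and plots. The procedure was tested on simulated data. The 10 genes and the lists were chosen with earlier results of these data known. Genes named beside the 10 were the 5 most alike and, of a list, up to 3 past the threshold with the smallest p or else the 1 with the smallest p. Predicted genes and symbols turned into dates (21 per table) are not named. Runner columns were matched by title, except O4ex and Y4ex, which with the control columns were matched to their group only. Alternatives were other filters (none, or 2 above the floor), quantile normalisation, median centring, voom on the recovered reads, leaving out each library, and a block for replicate number. Added after the data were seen were the removal of a trend on exon length (lowess span 0.3) and of O1ex with O4ex. The limits given for counts of 0 cover counting error only, since PCR copies were not marked. Values after ± are standard errors for differences and SDs over libraries for group means and ratios.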

Additional observations from a re-analysis of the deposited data

How the results depend on the processing

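Over the other alternatives, the removal of O1ex with O4ex included, the medians in runners against controls stayed between -1.20 and -0.37 in old mice and between -2.08 and -1.70 in young mice. These medians are over 9 genes, except 10 with no filter, where Meg3 enters, and 8 in old mice with 2 above the floor. Removing single libraries gave -1.21 to -0.75 and -2.07 to -1.62. The genes of the 11 lists called beside the 10 ranged from 0 to 4 in old mice when single libraries were left out (4 without Oc1) and from 0 to 3 in young mice (3 without Yc4). In young mice they were 1 with a filter of 2 above the floor, 7 with median centring, 10 with quantile normalisation and 7 with the exon length trend removed. Between old and young controls, 0 to 1 of the 9 genes was called when single libraries were left out. Over all genes, limma called 12 in old mice (1 to 295 when single libraries were left out, 295 without Oc1, and 0 without O1ex and O4ex) and 81 in young mice (0 to 181, 181 without Yc4). By voom they were 3 and 13, with no filter 7 and 24, with the stricter filter 27 and 73, with median centring 23 and 143, with quantile normalisation 24 and 228, and with the length trend removed 5 and 155. Between controls of both ages they were 11, with 3 by voom and with no filter, 28 by quantile normalisation, 24 with the length trend removed, and 3 to 52 when single libraries were left out (52 without Yc4).

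Without O1ex and O4ex together, the difference of Neat1 in old runners against old controls was 0.049. In old runners against young runners that removal gave 0.075 for Malat1, 0.32 for Neat1, 0.26 for Rsrp1, 0.39 for Ccnl1, 0.37 for Ccnl2, 0.22 for Clk1 and 0.20 for Taf1d, a direction that leaving out the lowest runners of 1 age favours; without Y3ex, the lowest young runner, all 8 genes were lower in old runners. Signs also turned when single libraries were left out, with ranges of -0.35 to 0.13 for Rsrp1, -0.34 to 0.081 for Ccnl1, -0.67 to 0.066 for Ccnl2 and -0.13 to 0.23 for Clk4 in that comparison, and of -0.14 to 0.13 for Clk4 between controls. For the old minus young effect of running they were -0.13 to 0.34 for Clk1 and -0.028 to 0.36 for Clk4, and Clk1 was at -0.0026 with the length trend removed. The cause was not tested. None of these values passed the threshold.

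Runner titles share numbers between ages. Same-numbered runners of both ages had deviations that correlated at -0.24, 0.09 and -0.40. So few pairs cannot settle whether the numbers mark a shared batch, and the labels do not say. With a replicate block, which leaves out O4ex and Y4ex, 0 of the 8 genes were called, 0 genes in all, and Ccnl1 was at 0.10. Depth limits Meg3, Mir99ahg and Taf1d most.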
